A study of Mus musculus with 12 samples.

Results

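The genes described here encode 10 enzymes, or subunits of enzymes, of the tricarboxylic acid cycle: Cs, Idh3a, Idh3b, Idh3g, Ogdh, Dlst, Sucla2, Suclg1, Fh1 and Mdh2. They were chosen by symbol, by a rule that uses no measured value but was set with earlier results of these data known, and each of the 10 had exactly 1 probe set assigned to its symbol alone, among 22180 genes measured in the same way. The data are 12 Affymetrix expression arrays of mouse adipocytes differentiated in culture from inguinal adipose precursor cells, in 4 groups of 3. All 4 groups have the genotype R26Cre/Prdm16floxEx9, a Cre recombinase at the Rosa26 locus together with a Prdm16 allele in which loxP sites flank an exon, and all were differentiated in a mixture of isobutylmethylxanthine, indomethacin, dexamethasone, insulin and the thyroid hormone T3. Growing precursors received ethanol (groups EtOH and EtOH_Rosi) or 1 uM 4-hydroxytamoxifen (groups 4OHT and 4OHT_Rosi) for 3 days, and the groups marked Rosi were also stimulated with rosiglitazone at 1 uM, a drug that activates PPARgamma and is known to induce browning. The treatment protocol, which is the same text for all samples, names rosiglitazone without limiting it to these groups, and the grouping here follows the titles and the sample characteristics. 4-hydroxytamoxifen is the ligand used to activate inducible Cre proteins and thereby delete the floxed exon of Prdm16, a transcriptional regulator of the brown and beige fat program. Cells without Cre or without the floxed allele were not analysed here, so effects of the drug itself and of the deletion cannot be told apart.

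The tricarboxylic acid cycle runs in the mitochondrial matrix, where it oxidises the acetyl groups made from glucose, fatty acids and amino acids to carbon dioxide and passes the electrons, as NADH and FADH2, to the respiratory chain. Citrate synthase (Cs) brings acetyl groups in. The NAD-dependent isocitrate dehydrogenase, built from a catalytic alpha subunit (Idh3a) with beta (Idh3b) and gamma (Idh3g) subunits, and the alpha-ketoglutarate dehydrogenase complex, with its E1 (Ogdh) and E2 (Dlst) components, carry out the oxidative decarboxylations. Succinyl-CoA synthetase (the shared alpha subunit Suclg1 with the ATP-forming beta subunit Sucla2), fumarase (Fh1) and malate dehydrogenase (Mdh2) complete the steps covered by these genes. Brown and beige adipocytes are rich in mitochondria, and the cycle supplies the electrons whose energy they release as heat.

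The 10 genes lie on 10 different chromosomes. RefSeq's table for GRCm38.p6 held promoter windows, from 250 bases before to 50 after the annotated start, for 9 of the 10 (all but Idh3a), 14 windows in all. These windows were rich in CpG dinucleotides: the first listed window of each gene held between 14 (Fh1) and 28 (Dlst), against a median of 7 over 32851 windows of mouse genes. Motifs of 6 kinds were searched on both strands. The NF-Y motif CCAAT was found in 4 of the 9 genes (Cs, Ogdh, Fh1 and Idh3b), and in 41.1% of all genes in the table. The GABP motif CCGGAAGT was found in Dlst (4.31% of all genes), the YY1 motif AAGATGGC in Idh3g (3.19%) and the NRF1 core GCGCATGC in windows of 2 downstream starts of Ogdh (3.05%). Neither the oestrogen-related receptor motif TCAAGGTCA (0.466% of all genes) nor the direct repeat AGGTCANAGGTCA bound by PPAR and RXR (0.0481%) was found in these letters in the windows of the 9 genes. The direct repeat holds the shorter AGGTCA that also ends the oestrogen-related receptor motif. None of the 6 motifs was found in the windows of Mdh2, Sucla2 or Suclg1. The stretches with the matches are shown to describe the sequence, and their part in the differences on the arrays was not tested. They are written 5′ to 3′ on the strand of the gene, with the matches in that stretch in capitals (ATTGG is CCAAT on the opposite strand, and ACTTCCGG is CCGGAAGT on the opposite strand). A match is a description of the sequence and not evidence of binding. The stretches lie at chr10:128337597-128337696 (Cs, plus strand), chr11:6291477-6291566 (Ogdh, plus), chr1:175625636-175625735 (Fh1, minus), chr2:130284482-130284551 (Idh3b, minus), chrX:73786988-73787047 (Idh3g, minus) and chr12:85110793-85110840 (Dlst, plus, which ends 8 bases into the transcript).
Cs: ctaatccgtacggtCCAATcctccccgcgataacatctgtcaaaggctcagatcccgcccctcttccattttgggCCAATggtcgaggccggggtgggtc
Ogdh: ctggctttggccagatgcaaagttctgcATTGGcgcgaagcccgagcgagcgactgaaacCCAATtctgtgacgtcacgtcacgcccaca
Fh1: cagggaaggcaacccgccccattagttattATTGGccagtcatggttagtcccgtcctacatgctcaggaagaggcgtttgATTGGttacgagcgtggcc
Idh3b: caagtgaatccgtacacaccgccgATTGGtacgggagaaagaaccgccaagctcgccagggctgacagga
Idh3g: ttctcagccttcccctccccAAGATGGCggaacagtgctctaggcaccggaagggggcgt
Dlst: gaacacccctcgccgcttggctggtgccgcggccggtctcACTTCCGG

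Values are log2 probe set values as deposited by the authors, and differences are on the log2 scale, where 1 is a doubling of signal. The table ran from 3.05 to 13.91 with array medians between 5.97 and 6.05. The 10 genes lay in its upper range, with means over the arrays from 8.92 (Suclg1) to 12.72 (Mdh2). Each difference carries the standard error from limma (n = 3 arrays per group), and a gene is called changed at an adjusted p under 0.05 (Benjamini-Hochberg over all 22180 genes). No label says that the 3 arrays of a group came from separate cultures, so these p-values measure the spread between arrays, which may be technical. The targeted gene, Prdm16, differed by -0.17 ± 0.10 after 4-hydroxytamoxifen without rosiglitazone (adjusted p = 0.455) and fell with it (-0.71 ± 0.10, adjusted p = 0.000646). Its probe set is not known to lie in the deleted exon. The array 4OHT_Rosi 3 stood apart on the third principal component over all genes, at 16.03 against -8.95 to 7.98 for the others.

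Rosiglitazone raised all 10 cycle genes in ethanol-treated cells. Of the 10, 10 rose and 0 fell, where 14.4% of all genes rose and 16.3% fell. The 3 EtOH_Rosi arrays lay above the 3 EtOH arrays for 10 of 10, which was so for 19.9% of all genes. The differences ran from 0.50 to 1.18 with a median of 0.68, against a median of 0.01 over all genes. Across all 12 arrays, the lowest rosiglitazone array was above the highest array without it for each of the 10.

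**Figure D1:**
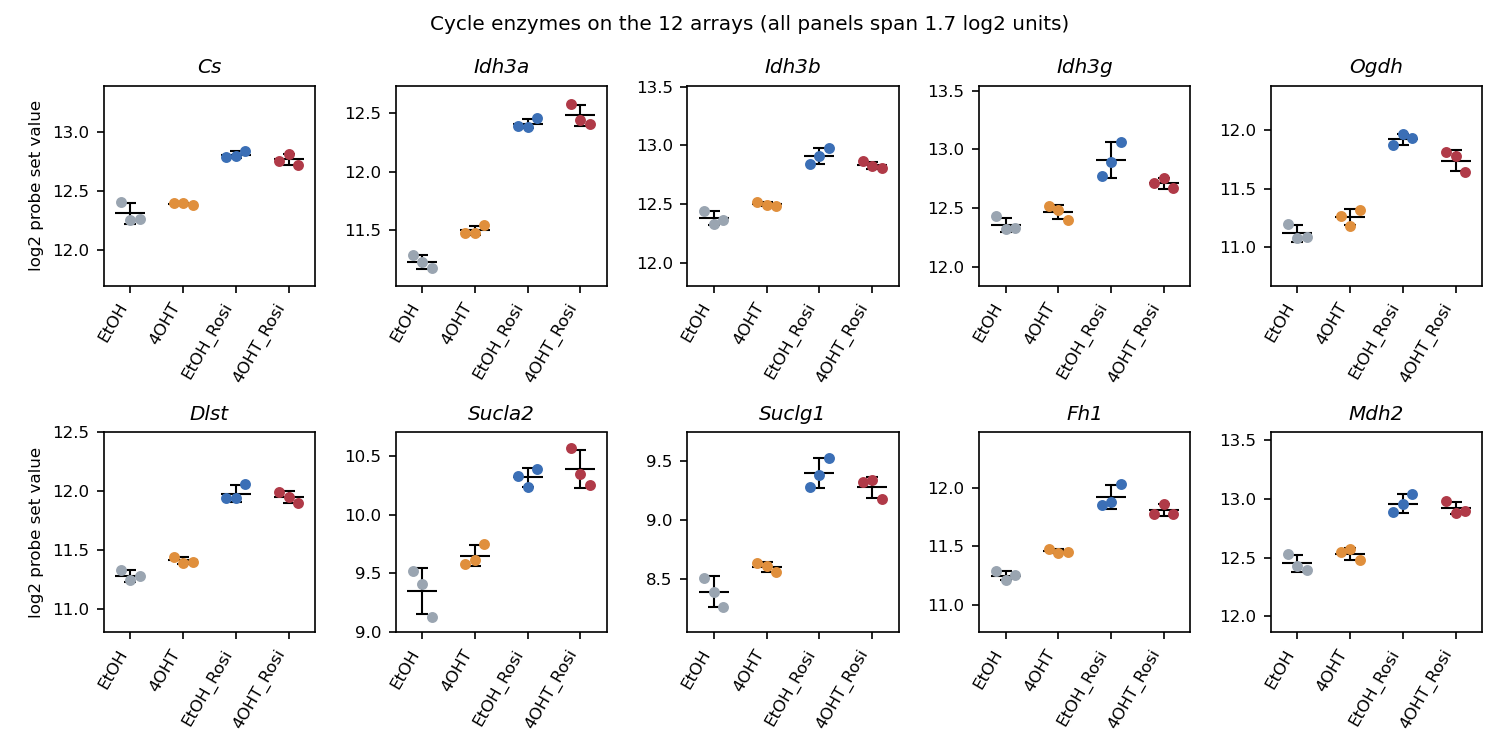
Log2 probe set values of the 10 cycle genes on each array, with 1 panel per gene, the 4 groups of 3 arrays on the horizontal axis, and a bar for the mean with its SD. All 10 panels show the rosiglitazone groups above both groups without it, and EtOH as the group with the lowest mean.

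The entry enzyme was among the genes with the smaller differences. Cs, citrate synthase, had values of 12.41, 12.25 and 12.26 in EtOH, 12.40, 12.40 and 12.38 in 4OHT, 12.79, 12.80 and 12.84 in EtOH_Rosi and 12.76, 12.82 and 12.72 in 4OHT_Rosi. Rosiglitazone raised it by 0.50 ± 0.06 after ethanol (1.42-fold, adjusted p = 1.47e-05). The spread within any group was much smaller than this step, and no array without rosiglitazone reached the level of one with it.

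The catalytic subunit of NAD-dependent isocitrate dehydrogenase had the largest difference of the 10. Idh3a was at 11.29, 11.23 and 11.18 in EtOH, 11.48, 11.48 and 11.55 in 4OHT, 12.39, 12.38 and 12.46 in EtOH_Rosi and 12.58, 12.44 and 12.41 in 4OHT_Rosi. It rose 2.26-fold with rosiglitazone after ethanol (1.18 ± 0.06, adjusted p = 2.29e-08). The 4OHT arrays also stood wholly above the EtOH arrays for this gene, which was so for 6 of the 10 and for 11.2% of all genes. Its partner subunits rose less: Idh3b by 0.53 ± 0.06 (adjusted p = 7.25e-06) from 12.38 ± 0.06 (SD, n = 3) to 12.91 ± 0.07, and Idh3g by 0.55 ± 0.07 (adjusted p = 5.31e-05). Idh3g read 12.43, 12.32 and 12.33 in EtOH, 12.52, 12.48 and 12.40 in 4OHT, 12.77, 12.89 and 13.06 in EtOH_Rosi and 12.71, 12.76 and 12.67 in 4OHT_Rosi. Its EtOH_Rosi arrays were the most spread of that group's 10 genes, and all 3 lay above the 4OHT_Rosi arrays.

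On single arrays, the gap between the alpha and beta subunit probe sets (Idh3a minus Idh3b) lay between -1.18 and -1.10 in EtOH, -1.04 and -0.93 in 4OHT, -0.53 and -0.45 in EtOH_Rosi and -0.40 and -0.29 in 4OHT_Rosi. The gap therefore narrowed by 0.64 with rosiglitazone after ethanol and by 0.64 after 4-hydroxytamoxifen. Against the gamma subunit the corresponding changes were 0.63 and 0.73. Between Idh3b and Idh3g the gap moved by -0.01 and 0.09. These pairs were compared after their values were seen, so no test is given. Idh3b and Idh3g lie nearer the top of the measured range than Idh3a, and the part of this in the smaller differences was not tested.

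Both components of the alpha-ketoglutarate dehydrogenase complex rose. Ogdh, the E1 component that decarboxylates the substrate, was at 11.20, 11.08 and 11.09 in EtOH, 11.27, 11.18 and 11.32 in 4OHT, 11.87, 11.97 and 11.93 in EtOH_Rosi and 11.81, 11.78 and 11.64 in 4OHT_Rosi. Its difference with rosiglitazone after ethanol was 0.80 ± 0.07 (1.74-fold, adjusted p = 8.57e-07). Dlst, the lipoate-carrying E2 component, rose by 0.70 ± 0.06 (adjusted p = 7.87e-07), from 11.28 ± 0.05 to 11.98 ± 0.07 (SD, n = 3). For Ogdh the 3 EtOH_Rosi arrays lay above the 3 4OHT_Rosi arrays, and for Dlst these groups overlapped.

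Succinyl-CoA synthetase subunits showed the next largest differences after Idh3a. Suclg1, the alpha subunit, had values of 8.51, 8.39 and 8.26 in EtOH, 8.63, 8.61 and 8.56 in 4OHT, 9.28, 9.38 and 9.53 in EtOH_Rosi and 9.32, 9.34 and 9.18 in 4OHT_Rosi. It rose 2.01-fold with rosiglitazone after ethanol (1.01 ± 0.08, adjusted p = 6.56e-07). Sucla2, the beta subunit of the ATP-forming enzyme, rose 1.95-fold (0.97 ± 0.10, adjusted p = 7.50e-06). Its arrays were at 9.52, 9.41 and 9.13 in EtOH, 9.58, 9.61 and 9.75 in 4OHT, 10.33, 10.24 and 10.39 in EtOH_Rosi and 10.57, 10.35 and 10.25 in 4OHT_Rosi, and its SD of 0.20 in EtOH was the largest of the 10 genes in any group. The gap between Sucla2 and Suclg1 moved by -0.04 after ethanol and 0.06 after 4-hydroxytamoxifen.

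Fumarase and malate dehydrogenase, the last steps before oxaloacetate is remade, rose as well. Fh1 was at 11.29, 11.21 and 11.26 in EtOH, 11.48, 11.44 and 11.45 in 4OHT, 11.85, 11.88 and 12.03 in EtOH_Rosi and 11.78, 11.86 and 11.78 in 4OHT_Rosi. It rose by 0.67 ± 0.06 (1.59-fold, adjusted p = 1.82e-06) and, like Idh3a, was higher on each 4OHT array than on any EtOH array. Mdh2 rose by 0.51 ± 0.06 (1.43-fold, adjusted p = 2.15e-05), from 12.45 ± 0.07 to 12.96 ± 0.08 (SD, n = 3).

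In cells treated with 4-hydroxytamoxifen, rosiglitazone again raised the cycle genes: 10 of 10 rose and 0 fell, where 11.6% of all genes rose and 12.1% fell. The 4OHT_Rosi arrays lay above the 4OHT arrays for 10 of 10, against 18.1% of all genes. Differences ran from 0.25 (Idh3g) to 0.97 (Idh3a) with a median of 0.44, against 0.00 over all genes. Idh3a rose 1.96-fold (0.97 ± 0.06, adjusted p = 1.21e-07), Sucla2 by 0.74 ± 0.10 (adjusted p = 0.000114) and Suclg1 by 0.68 ± 0.08 (adjusted p = 2.87e-05). Dlst rose by 0.54 ± 0.06, Ogdh by 0.49 ± 0.07, Mdh2 by 0.39 ± 0.06, Cs by 0.37 ± 0.06, Fh1 by 0.35 ± 0.06 and Idh3b by 0.34 ± 0.06, with adjusted p-values from 1.15e-05 to 0.000643. The call for Idh3g (0.25 ± 0.07, adjusted p = 0.0248) was the weakest. It was lost without 4OHT 2 (adjusted p = 0.0589), 4OHT 3 (0.0983), 4OHT_Rosi 1 (0.0596) or 4OHT_Rosi 2 (0.0827), and after quantile normalization, where the difference was 0.20 (adjusted p = 0.0749).

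Without rosiglitazone, 4-hydroxytamoxifen left 1 of the 10 genes called higher and 0 lower, where 2.13% of all genes were higher and 1.79% lower. Idh3a rose by 0.27 ± 0.06 (1.21-fold, adjusted p = 0.0244). Leaving out any 1 of 5 of the 6 arrays compared ended that call: limma's adjusted p was 0.0869 with EtOH 2 left out, 0.101 with EtOH 3, 0.0696 with 4OHT 1, 0.0695 with 4OHT 2 and 0.108 with 4OHT 3. All 10 differences were positive, from 0.08 (Mdh2) to 0.29 (Sucla2) with a median of 0.13, against 0.00 over all genes. For 6 of the 10 (Idh3a, Idh3b, Dlst, Sucla2, Suclg1 and Fh1) the 4OHT arrays lay above the EtOH arrays, which was so for 11.2% of all genes, and 5 of the 10 were higher at an unadjusted p under 0.05, against 8.40% of all genes. Fh1 differed by 0.20 ± 0.06 (adjusted p = 0.0849) and Sucla2 by 0.29 ± 0.10 (adjusted p = 0.154). Among the remaining genes the adjusted p-values lay between 0.187 (Suclg1) and 0.596 (Mdh2).

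With rosiglitazone, 4-hydroxytamoxifen changed none of the 10 by limma's test (0 of 10 higher and 0 lower, where 4.65% of all genes were higher and 3.38% lower). At an unadjusted p under 0.05, 2 of the 10 were lower, against 9.97% of all genes, and 0 were higher. Differences ran from -0.19 (Idh3g) to 0.07 (Idh3a and Sucla2), with a median of -0.06 against -0.01 over all genes. The 2 genes were Idh3g (-0.19 ± 0.07, 95% interval -0.35 to -0.04, adjusted p = 0.139) and Ogdh (-0.18 ± 0.07, interval -0.32 to -0.04, adjusted p = 0.123). In both of these the 4OHT_Rosi arrays lay below the EtOH_Rosi arrays, which was so for 10.3% of all genes. Idh3g was called lower without EtOH_Rosi 1 (-0.26, adjusted p = 0.0482), and without EtOH_Rosi 3 its difference was -0.12 (adjusted p = 0.392). For Cs the 95% interval was -0.17 to 0.08 and for Mdh2 -0.18 to 0.09, so that a fall in either by more than 0.18 lies outside the interval.

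**Figure D2:**
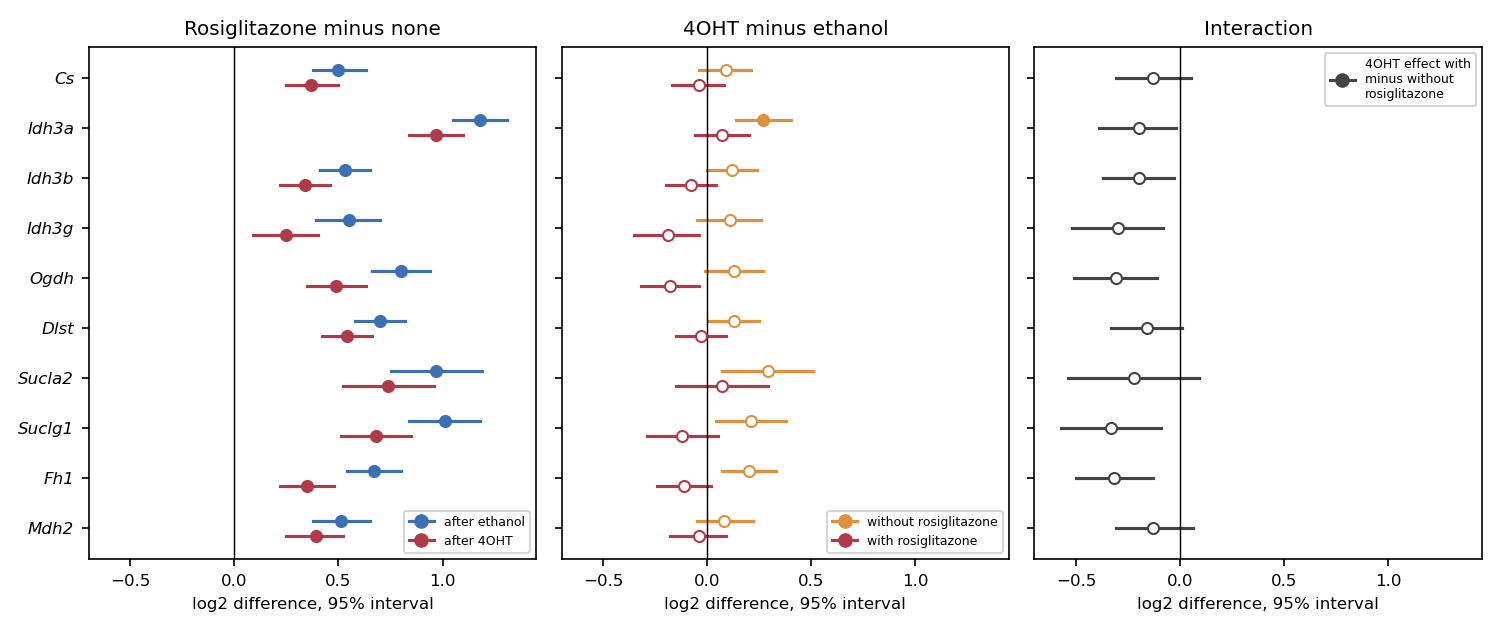
Log2 differences with 95% intervals for the 10 cycle genes, for rosiglitazone against none (left), 4-hydroxytamoxifen (4OHT) against ethanol (middle) and the difference between the 4-hydroxytamoxifen effects (right), with filled points for an adjusted p under 0.05. The rosiglitazone differences are all filled and above 0, 1 point in the middle panel (Idh3a without rosiglitazone) is filled, and the 10 interaction estimates lie below 0 with none filled.

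The interaction asked whether the effect of 4-hydroxytamoxifen differed between cells with and without rosiglitazone, which is the same quantity as the difference between the rosiglitazone responses. The estimate was negative for 10 of 10 genes, from -0.33 (Suclg1) to -0.13 (Cs and Mdh2), with a median of -0.21 against 0.00 over all genes. None of the 10 passed limma's test (0 higher and 0 lower, where 0.523% of all genes were higher and 0.482% lower), and 6 of the 10 were lower at an unadjusted p under 0.05, against 7.06% of all genes. The smallest adjusted p-values were those of Fh1 (-0.32 ± 0.08, adjusted p = 0.104), Ogdh (-0.31 ± 0.09, adjusted p = 0.137) and Suclg1 (-0.33 ± 0.11, adjusted p = 0.195). Fh1 and Ogdh passed under an intensity trend with robust variances (adjusted p = 0.0256 and 0.0465). The 10 estimates share the same 12 arrays and are not independent of one another.

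By group mean, EtOH was lowest and 4OHT the next lowest for all 10 genes. EtOH_Rosi was highest for 8, and 4OHT_Rosi for 2 (Idh3a and Sucla2). The step between the 2 groups without rosiglitazone was beyond the test's threshold for Idh3a, and that between the 2 rosiglitazone groups for none of the 10.

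The genes also moved together within groups. Over the 12 arrays the 45 pairs among the 10 genes correlated at a Pearson r of 0.87 to 0.99 (median 0.98), over arrays that fall into groups by rosiglitazone. After each group's mean was taken out, r ranged from 0.11 (Sucla2 with Fh1) to 0.92 with a median of 0.62. These values describe 12 arrays that the pairs share, in which array-wide differences enter every gene. EtOH 1 was the highest EtOH array for 10 of 10 genes, EtOH_Rosi 3 the highest of its group for 9 and 4OHT_Rosi 3 the lowest of its group for 9. The mean of the 10 centred genes was -0.31 in EtOH 1 against -0.42 and -0.45 in the other EtOH arrays, 0.42 in EtOH_Rosi 3 against 0.29 and 0.33, and 0.22 in 4OHT_Rosi 3 against 0.33 and 0.29. The first principal component over all genes held 60.9% of the variance and put EtOH 1, EtOH_Rosi 3 and 4OHT_Rosi 3 at the same ends of their groups. EtOH 1 was at -23.60 against -27.14 and -26.69, EtOH_Rosi 3 at 29.79 against 22.84 and 26.71, and 4OHT_Rosi 3 at 14.93 against 25.42 and 21.86. The order of EtOH 2 and EtOH 3, and that of 4OHT 2 and 4OHT 3, was not the same as in the mean of the 10.

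**Figure D3:**
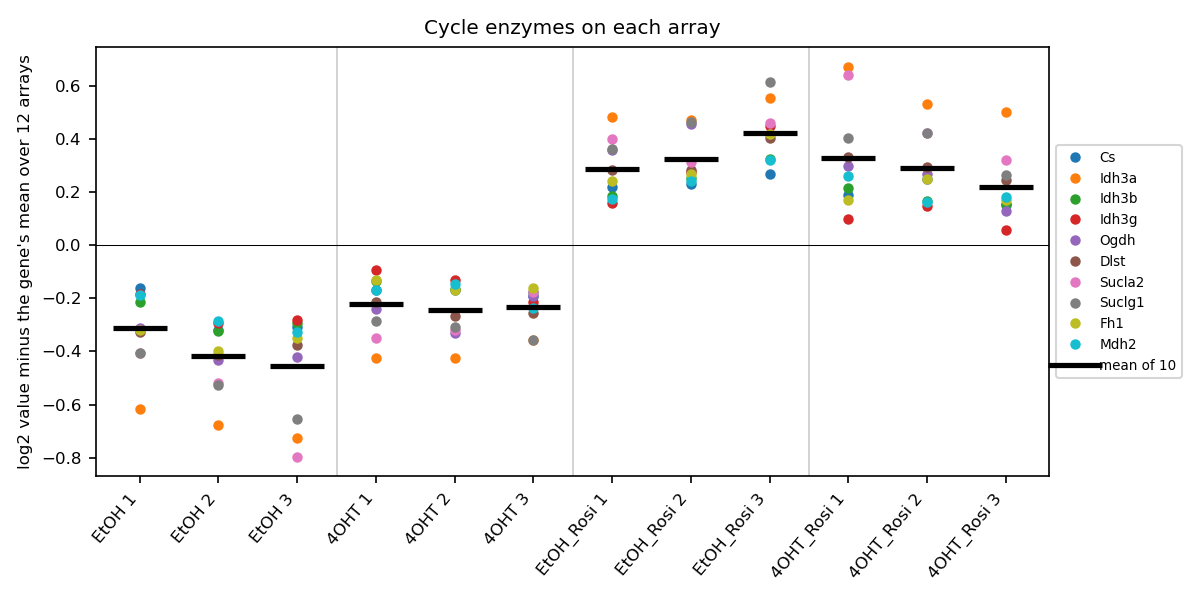
Log2 value of each cycle gene minus its mean over 12 arrays, by array, with coloured points for the 10 genes and a black bar for their mean. The mean lies between -0.45 and -0.22 on the 6 arrays without rosiglitazone and between 0.22 and 0.42 on the 6 with it, and Sucla2 and Idh3a span the widest ranges.

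Outside the gene lists used here, the 5 named genes whose values followed the mean of the 10 most closely over the 12 arrays were Mrs2 (r = 0.996), a magnesium channel of the inner mitochondrial membrane, Letm1 (r = 0.996), an inner membrane protein of cation exchange, Opa1 (r = 0.995), the GTPase of inner membrane fusion, Fah (r = 0.994), the last enzyme of tyrosine breakdown, whose products include fumarate, and Acadl (r = 0.994), the long-chain acyl-CoA dehydrogenase of fatty acid oxidation. This ranking is a description over 12 arrays that fall into groups.

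Other genes of the cycle moved with the 10. Those described are 7: Idh2, Suclg2, Dld and the succinate dehydrogenase subunits Sdha, Sdhb, Sdhc and Sdhd. After ethanol, rosiglitazone raised 7 of 7, with a median of 0.58: Sdhd by 0.87 ± 0.07 (adjusted p = 5.30e-07), Dld, the E3 component shared by the dehydrogenase complexes, by 0.85 ± 0.06 (adjusted p = 4.20e-07) and Idh2, the NADP-dependent mitochondrial isocitrate dehydrogenase, by 0.40 ± 0.08 (adjusted p = 0.00205). After 4-hydroxytamoxifen 5 of 7 rose, with a median of 0.34. The exceptions were Idh2 (0.03 ± 0.08, adjusted p = 0.856) and Suclg2, the beta subunit of the GTP-forming succinyl-CoA synthetase (0.16 ± 0.06, adjusted p = 0.0825). The call for Sdhc was lost without 4OHT 1, 4OHT 2 or 4OHT_Rosi 2.

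With rosiglitazone, 4-hydroxytamoxifen lowered those same 2 of the 7 measured genes, Idh2 (-0.32 ± 0.08, adjusted p = 0.0318) and Suclg2 (-0.27 ± 0.06, adjusted p = 0.0143), and raised 0. Of all genes, 3.38% were called lower and 4.65% higher. The differences of all 7 were negative, from -0.32 to -0.08 with a median of -0.16. At an unadjusted p under 0.05, 4 of the 7 were lower, Sdhc (-0.16) and Sdhd (-0.19) among them, against 9.97% of all genes. Suclg2 lost its call without EtOH_Rosi 3 or 4OHT_Rosi 3, and Idh2 without either of these or EtOH_Rosi 2 or 4OHT_Rosi 1, with adjusted p-values up to 0.119. For neither gene did the interaction pass (Idh2 -0.37 ± 0.12, adjusted p = 0.170, and Suclg2 -0.33 ± 0.09, adjusted p = 0.0945). Set beside them, the NAD-dependent subunits differed by 0.07 (Idh3a), -0.08 (Idh3b) and -0.19 (Idh3g) in that comparison, and Sucla2, the ATP-forming counterpart of Suclg2, by 0.07 ± 0.10 (adjusted p = 0.771). Whether Idh2 and Suclg2 differ from their counterparts was not tested. In the interaction the estimates of the 7 genes ran from -0.37 to -0.19, with a median of -0.29. None passed limma's test, and 6 of the 7 were lower at an unadjusted p under 0.05, against 7.06% of all genes.

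Genes that feed and equip the cycle followed it in part. The 4 pyruvate dehydrogenase genes, which make acetyl-CoA from pyruvate, rose with rosiglitazone after ethanol (4 of 4, median 0.86) and after 4-hydroxytamoxifen (4 of 4, median 0.69), with Pdhx at 1.09 ± 0.09 (adjusted p = 6.56e-07) and 0.88 ± 0.09 (adjusted p = 6.44e-06). All 3 genes of lipoate synthesis and attachment, which supply the cofactor of Dlst and of the pyruvate dehydrogenase E2, rose in both settings (medians 0.75 and 0.49). Lias, lipoic acid synthase, rose by 0.75 ± 0.07 after ethanol (adjusted p = 3.02e-06). Lipt2 was the weakest of them after 4-hydroxytamoxifen (0.26 ± 0.08, adjusted p = 0.0221) and lost its call there without 4OHT 3 or 4OHT_Rosi 3, and after ethanol without EtOH_Rosi 3. Lipt1, a lipoyltransferase, was lower after 4-hydroxytamoxifen with rosiglitazone (-0.21 ± 0.06, adjusted p = 0.0461), a call lost on leaving out any array except EtOH 1 or 4OHT_Rosi 3.

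Of 4 relatives outside the canonical cycle, the cytosolic aconitase Aco1 (0.63 ± 0.06, adjusted p = 5.62e-06) and the cytosolic malate dehydrogenase Mdh1 (0.49 ± 0.06, adjusted p = 2.16e-05) rose with rosiglitazone after ethanol. The cytosolic isocitrate dehydrogenase Idh1 differed by 0.13 ± 0.06 (adjusted p = 0.0980) and the Ogdh relative Ogdhl by 0.16 ± 0.08 (adjusted p = 0.200). Of 10 measured genes of carbon entry and exit, 5 rose and 0 fell after ethanol (median 0.24): pyruvate carboxylase Pcx (0.37 ± 0.07), the mitochondrial aspartate aminotransferase Got2 (0.39 ± 0.06), the citrate carrier Slc25a1 (0.33 ± 0.06), the oxoglutarate carrier Slc25a11 (0.59 ± 0.07) and ATP citrate lyase Acly (0.30 ± 0.08), with adjusted p-values from 1.62e-05 to 0.0102. Acly lost that call without EtOH 2 (adjusted p = 0.0536). After 4-hydroxytamoxifen 5 of the 10 rose and 0 fell (median 0.26), with Me1 called in place of Pcx. There Me1 rose by 0.44 ± 0.07 (adjusted p = 0.000248) and Pcx differed by 0.21 ± 0.07 (adjusted p = 0.0511). After ethanol Me1 differed by 0.18 ± 0.07 (adjusted p = 0.0554). Of the 4 relatives, Aco1 (0.47 ± 0.06) and Mdh1 (0.36 ± 0.06) rose after 4-hydroxytamoxifen too. Glud1, glutamate dehydrogenase, rose after 4-hydroxytamoxifen without rosiglitazone (0.35 ± 0.08, adjusted p = 0.0314), a call lost on leaving out any of the 6 arrays compared.

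**Figure D4:**
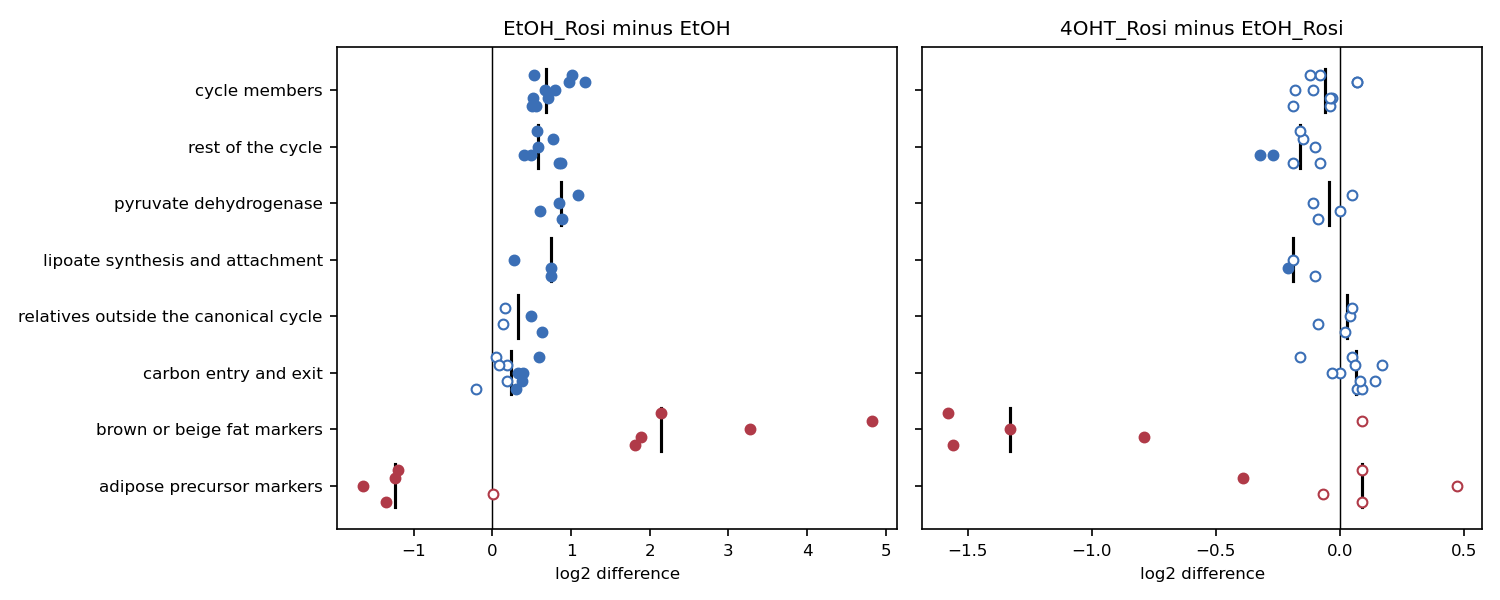
Log2 differences of the 10 cycle genes and of related gene lists for EtOH_Rosi against EtOH (left) and 4OHT_Rosi against EtOH_Rosi (right), with 1 point per gene, filled at an adjusted p under 0.05, and a bar at the median of the list. On the left the cycle genes lie between 0.50 and 1.18 and the brown or beige fat markers between 1.81 and 4.82, and on the right the cycle genes lie between -0.19 and 0.07 while 4 of 5 brown or beige fat markers are filled and below 0.

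Of 7 regulators of mitochondrial genes, 5 rose with rosiglitazone after ethanol and 5 after 4-hydroxytamoxifen. The coactivators Ppargc1a (1.73 ± 0.13, adjusted p = 4.54e-07) and Ppargc1b (1.72 ± 0.09, adjusted p = 2.55e-08) had the largest differences after ethanol, and the oestrogen-related receptor Esrra (0.47 ± 0.07), the GABP subunit Gabpa (0.48 ± 0.06) and the mitochondrial transcription factor Tfam (0.43 ± 0.09) rose too. Neither Nrf1 (0.00 ± 0.07) nor Pparg, which encodes the receptor of rosiglitazone (0.06 ± 0.05, adjusted p = 0.473), passed the test. Without rosiglitazone, 4-hydroxytamoxifen raised 1 of the 7, Pparg (0.24 ± 0.05, adjusted p = 0.0255), a call lost on leaving out any array compared except EtOH 1. With rosiglitazone it changed 0 of the 7 (0 at an unadjusted p under 0.05 in either direction).

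Markers of brown or beige fat separated from the cycle genes in size. Rosiglitazone after ethanol raised 5 of 5 (median 2.14), and 4-hydroxytamoxifen with rosiglitazone lowered 4 of 5 (median -1.33), among them Ucp1 (-1.58 ± 0.14, adjusted p = 1.97e-05) and Cox8b (-1.33 ± 0.14, adjusted p = 9.08e-05). The exception was Elovl3, which had the list's largest difference with rosiglitazone after ethanol (4.82 ± 0.16). With rosiglitazone, 4-hydroxytamoxifen changed Elovl3 by 0.09 ± 0.16 (adjusted p = 0.818). In that comparison the cycle genes had a median of -0.06. No test of this difference between lists was made.

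Markers of cell types moved with rosiglitazone as well. Adipocyte markers were present in all groups. After ethanol 4 of 6 rose: Cidec by 1.89, Lipe by 0.51, Adipoq by 0.41 and Plin1 by 0.22. Fabp4 (0.08, limma's adjusted p = 0.297) and Pparg (0.06, adjusted p = 0.473) were not called. The log2 of their summed signal was 14.59 to 14.63 in EtOH, 14.64 to 14.69 in 4OHT, 14.99 to 15.05 in EtOH_Rosi and 14.98 to 15.07 in 4OHT_Rosi. The sums in this paragraph add linear signal, so bright genes and large changes, such as that of Cidec, weigh most. Of 5 measured precursor markers 4 fell, Pdgfra by 1.24 ± 0.09 (adjusted p = 3.60e-07), and their summed signal went from 13.41 to 13.50 in EtOH and 13.05 to 13.12 in 4OHT to 12.13 to 12.30 in EtOH_Rosi and 11.98 to 12.39 in 4OHT_Rosi. Macrophage and leukocyte markers (4 of 5 fell) were at 11.75 to 11.99, 11.66 to 11.84, 11.18 to 11.34 and 11.32 to 11.42 in the same order of groups. Endothelial markers (4 of 4 fell) were at 12.19 to 12.43, 12.14 to 12.24, 11.51 to 11.66 and 11.47 to 11.80. These counts are for rosiglitazone after ethanol. After 4-hydroxytamoxifen it raised 3 of 6 adipocyte markers. There it lowered 4 of 5 precursor, 2 of 5 macrophage and leukocyte and 3 of 4 endothelial markers. Proliferation markers (4 of 4 fell in both settings) were at 10.98 to 11.02, 10.08 to 10.34, 9.62 to 9.73 and 9.35 to 9.71. They also fell after 4-hydroxytamoxifen without rosiglitazone (4 of 4). In the other lists of this paragraph, 4-hydroxytamoxifen without rosiglitazone lowered Cidec (-0.39), Pdgfra (-0.53) and Itgam (-0.63) and raised Pparg (0.24). With rosiglitazone, 4-hydroxytamoxifen lowered Pdgfra (-0.39) and the proliferation marker Mki67 (-0.35) and raised the endothelial marker Kdr (0.49). For these calls limma's adjusted p lay between 0.00366 (Kdr) and 0.0387 (Mki67). Of the markers measured in these lists, Dlk1 had group means below the median gene level of 6.60 in all 4 groups. Among the brown or beige fat markers, Ucp1 and Cidea had means above that level only in EtOH_Rosi (7.79 and 6.66). Cox8b was above it only in EtOH_Rosi (9.69) and 4OHT_Rosi (8.36). In these bulk samples a change in the number of cells of a type and a change in RNA per cell cannot be told apart, and the part of these shifts in the differences of the cycle genes was not tested.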

How the data were processed

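The data were log2 probe set values of 12 arrays, deposited by the authors as a table of 41345 probe sets. The submitters' processing notes name Affymetrix Expression Console. For its version and for how probe sets were summarised and normalized, nothing was given in the sources used here. Of the probe sets, 23521 had 1 gene symbol, 1814 had several and 16010 had none. Symbols were updated by Entrez ID through RefSeq for 23328. For genes with more than 1 probe set, the one with the highest mean was used, which left 22180 genes, with no filter on dim genes. The 10 cycle genes had 1 probe set each.

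A linear model with a mean for each of the 4 groups was fitted to all 12 arrays with limma 3.58.1 in R 4.3.3 (lmFit and eBayes, 8 residual and 5.07 prior degrees of freedom), with 5 contrasts. Genes with a Benjamini-Hochberg adjusted p under 0.05 over all genes were called. The steps were tested on simulated data. Precision is limited by the number of arrays. Lists are described by counts and medians. The genes named were the 10 members, Prdm16, and genes of lists of the pathway, its regulators and cell type markers, and the 5 named genes most correlated with the members' mean. The members, lists and motifs were chosen with earlier results of these data known. Promoter sequences are those of RefSeq for GRCm38.p6, and 9 of the 10 genes matched. The alternatives tried were array weights, robust variances with an intensity trend, the replicate number as a block, fits restricted to the compared groups, quantile normalization, median centring, a filter at the 25th percentile, the mean of all probe sets and leaving out each array. Leaving out arrays for the other genes of the pathway was added after seeing the data.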

Additional observations from a re-analysis of the deposited data

How the results depend on the processing

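The counts of 10 of 10 cycle genes raised by rosiglitazone held under all 20 alternatives after ethanol. After 4-hydroxytamoxifen they were 9 or 10. For 4-hydroxytamoxifen without rosiglitazone, the 1 gene called higher became 2 under an intensity trend with robust variances, 3 with array weights and 0 to 1 without single arrays. With rosiglitazone, the 0 genes called lower became 1 under the intensity trend and 0 to 1 without single arrays. In the interaction, 0 called lower became 2 under the intensity trend. The causes were not tested. Of 990 values of single genes under the alternatives, 973 stayed on their side of the threshold, 10 lost a call and 7 gained one. These are not separate tests of stability. Each of the 10 genes had 1 probe set, so the mean of all probe sets left its values as they were. Leaving out an array of a group not compared left the difference unchanged, and could act on a call only through the variance and the adjustment. No called value changed sign, but differences near 0 did for Dlst (-0.06 to 0.01) and Sucla2 (-0.02 to 0.14) in 4OHT_Rosi against EtOH_Rosi, where neither was called. The interaction stayed negative for 10 of 10 genes. Scaling moved the median of all genes by at most 0.037 log2.

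With the replicate number as a block, the counts of called genes were the same as without it in all 5 contrasts (10 and 10 for rosiglitazone, 1 and 0 for 4-hydroxytamoxifen, 0 for the interaction). The numbers do not pair the arrays: deviations of same-numbered arrays correlated at -0.24 to 0.079, and 0 of 12 arrays correlated best with one of its own number. Cs, Idh3b, Idh3g and Mdh2 lay nearest the top of the measured range, and whether this compressed their differences was not tested.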
